A study of Mus musculus with 9 samples.

Results

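The transcriptomes of the murine colon carcinoma line MC38 and of its liver metastatic derivatives were examined for 45 interferon-stimulated effector genes. These genes encode proteins that act downstream of interferon signaling, and the Oas enzymes, the interferon-inducible GTPases, the nucleic acid sensors, the Stat and Irf factors and the MHC genes were left out of the group. Of the 45 genes, 43 were among the 16399 genes listed by symbol, and Mx1 and Mx2 were not analysed here. A level of at least 1 TPM (transcript abundance scaled by transcript length and to the same total in every library) in at least 3 libraries was reached by 37 of them and by 11287 genes in all. The genes were picked by their known roles, with earlier results of these data known.

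MC38-P is the parental line, labelled with GFP and firefly luciferase. Rounds of intrasplenic injection into immunocompetent mice and recovery of the tumor cells from the liver gave MC38-LM1 and then MC38-LM2. MC38-LM3a and MC38-LM3b came from the third round, and the study calls them independently derived. By the names of the lines, the derivatives share the earlier rounds of selection. Each derivative is a single cell line, so a difference from MC38-P belongs to that line. All 3 lines carry these reporters, were grown in culture without a stated interferon treatment, and contributed 3 libraries each, described as biological replicates. Which of the members differed between the derivatives and the parental line, and between the derivatives, was compared.

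Interferons are secreted proteins that bind receptors on the cell surface and activate Janus kinases. The kinases phosphorylate Stat proteins, which enter the nucleus, with Irf9 in the case of type I interferon, and bind the interferon-stimulated response element or the gamma-activated site in the promoters of target genes. The encoded effectors restrict viruses by binding foreign RNA, degrading nucleic acids, altering membranes or attaching the ubiquitin-like protein Isg15 to other proteins. Many are also transcribed at a basal level in cells that have met no virus.

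Levels of 1 TPM or more were recorded for 10875 to 11218 genes in a library, and correlations across genes between libraries ranged from 0.969 to 0.997. The depth of the libraries is unknown because the values are TPM. MC38-P replicate 3 and MC38-LM3a replicate 3 stood apart from their own replicates along transcript length: the Spearman correlation across genes of a library's deviation with length was -0.62 and 0.64 in them, 0.41 to 0.51 in the other MC38-P libraries, -0.55 and -0.51 in the other MC38-LM3a libraries, and -0.01 to 0.02 in MC38-LM3b. Results are therefore also given on values corrected for transcript length and GC content. The correction also centres each library, which matters for MC38-LM3b, where the median over all tested genes was 0.21 (log2 fold change against MC38-P) as deposited and 0.01 after correction. The labels call the cells epithelial. Krt8 and Krt18, keratins of simple epithelia, were at 707 TPM or more in every library, while Cdh1 and Vil1 did not exceed 0.13 TPM. Of the 6 tested of 8 epithelial markers 4 were lower in each derivative, namely, by log2 fold change, Krt8 (-0.48 and -0.56), Krt18 (-0.24 and -0.32), Epcam (-1.14 and -1.07) and Cdx2 (means of 2.27, 0.630 and 0.410 TPM in MC38-P, MC38-LM3a and then MC38-LM3b), while Krt19 and Krt20 were higher in MC38-LM3a. The part of these changes in the results for the effectors was not tested.

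Most tested effectors were higher in each derivative than in MC38-P, while Ifitm1 and Ifitm3 were lower in both and Ifitm2 in MC38-LM3b. The call of Ifitm3 in MC38-LM3b was lost after correction for length and GC content (adjusted p = 0.173 in limma). In MC38-LM3a, limma called 20 of 37 tested members (54.1%) higher at an adjusted p-value under 0.05, where 14.1% of all tested genes were, and 2 were lower, where 13.8% of all genes were. In MC38-LM3b, 27 members (73.0%) were higher against 35.6% of all genes, and 3 were lower against 11.2%. Both comparisons use the same MC38-P libraries, so they are not independent. Rsad2 stayed under 1 TPM in every MC38-P library and Trim30a in all but 1 of them, so both reached the level for testing only through the derivatives. Of the 35 members at 1 TPM or more in every MC38-P library, 18 were higher in MC38-LM3a and 25 in MC38-LM3b. When replicate 3 of MC38-P and of MC38-LM3a were left out, an alternative chosen after seeing the data, 20 members were higher and 6 lower in MC38-LM3a (2059 and 5052 of 11187 tested genes), and 30 were higher and 4 lower in MC38-LM3b (5178 and 2122 genes). In bulk RNA, a change in the share of cells that express a gene and a change in the RNA per cell cannot be told apart.

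In MC38-LM3a the members had a median log2 fold change of 0.38, beside 0.00 for all tested genes, and in MC38-LM3b one of 0.66, beside 0.21. After the correction for length and GC content the medians of the members were 0.36 and 0.47. A log2 fold change above 1 with an adjusted p-value under 0.05, the definition of a differentially expressed gene (DEG) used in the study, was found for 4 members in MC38-LM3a (Ifi27, Xaf1, Sp100 and Uba7) and 9 in MC38-LM3b (the same 4 with Rsad2, Parp14, Trim30a, Lgals3bp and Helz2). The shares of higher DEGs among all tested genes were 1.39% and 2.76%. Without Rsad2 and Trim30a, tested only through the derivatives, 4 and 7 of 35 members were higher DEGs. Ifitm1 was the single lower DEG among the members in each comparison, where 1.5% and 1.18% of all genes were lower DEGs. After correction, 5 members were higher DEGs in MC38-LM3b, where 1.63% of all genes were. Rsad2 (0.86), Parp14 (0.93), Trim30a (0.76) and Helz2 (0.70) were then no longer DEGs in that line.

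**Figure D1:**
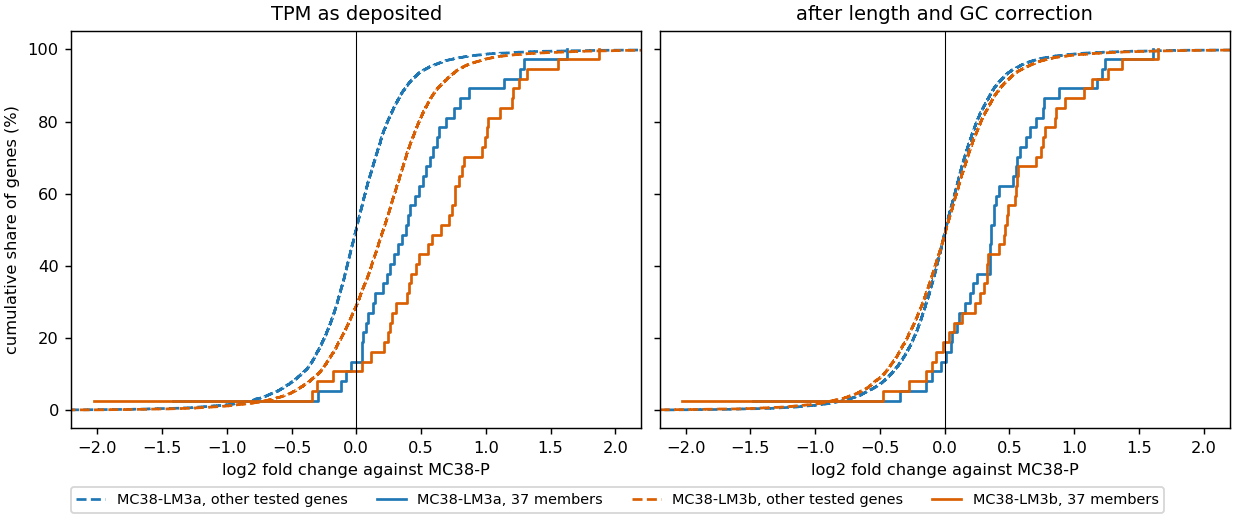
Cumulative share of genes (%) by log2 fold change of TPM + 1 against MC38-P, for the 37 tested members (solid) and the other tested genes (dashed), as deposited (left) and after correction for length and GC content (right). The curves of the members lie to the right of those of the other genes over most of their length, with member medians as deposited of 0.38 (MC38-LM3a) and 0.66 (MC38-LM3b). Ifitm1 is at their lower end.

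The groups were also separated at the level of single libraries. All 3 MC38-LM3a libraries lay above all 3 MC38-P libraries for 21 of the 37 members, against 20.3% of all tested genes, and below them for Ifitm1 and Ifitm3, against 15.9% of all genes. All 3 MC38-LM3b libraries lay above MC38-P for 31 members, against 51.3% of all genes, and below for Ifitm1, Ifitm2, Ifitm3 and Epsti1, against 15.4%. The correction for length and GC content raised the number of higher members in MC38-LM3a to 27, with 26.5% of all genes higher and 24.6% lower. It left the number in MC38-LM3b at 27, with 29.3% of all genes higher and 28.3% lower. Those gained in MC38-LM3a were Eif2ak2, Parp10, Dtx3l, Rnf213, Helz2, Znfx1 and Pml. Rsad2 and Trim30a, tested only through the derivatives, are among the 21, the 31 and the 27 of each line.

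**Figure D2:**
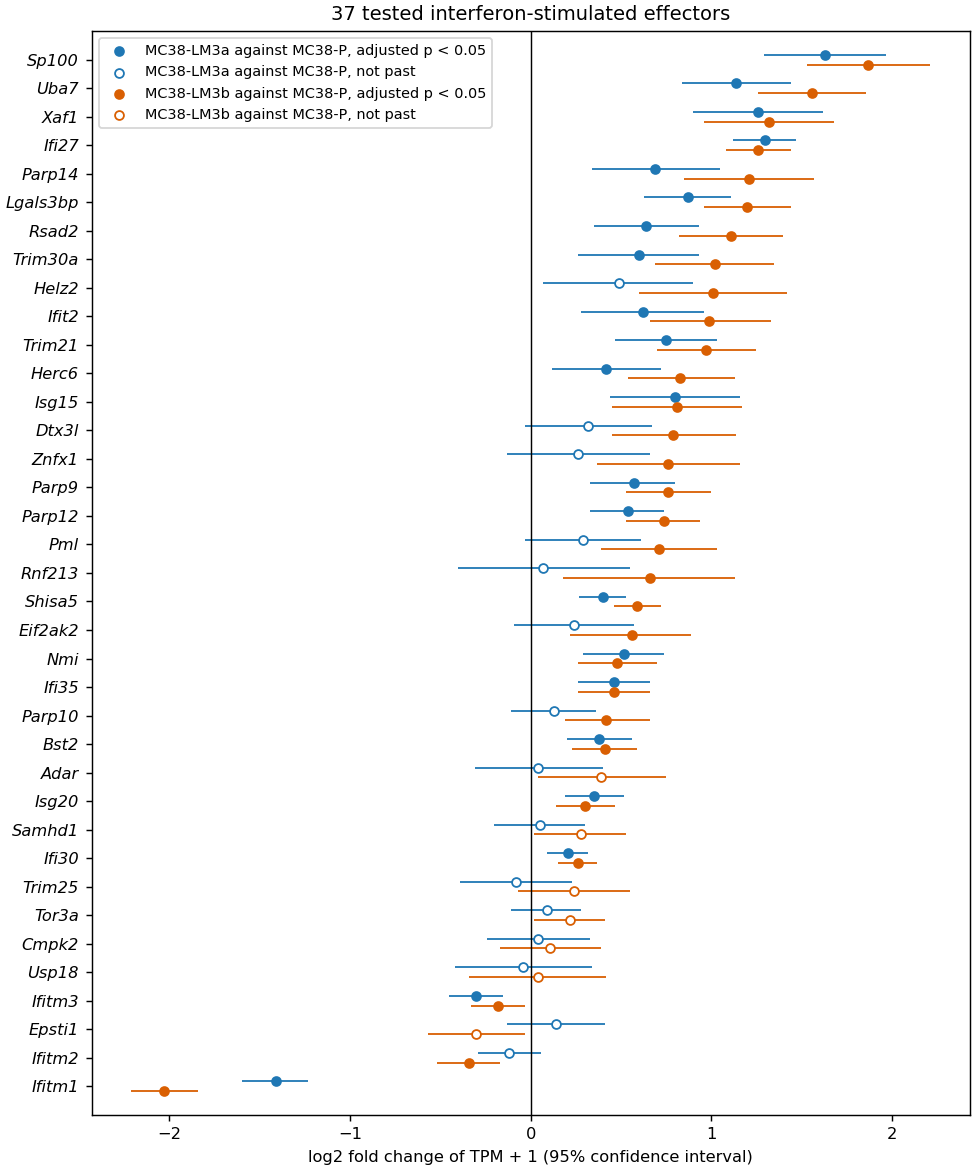
Log2 fold change of TPM + 1 against MC38-P for each of the 37 tested members, with 95% confidence intervals from limma, in MC38-LM3a and MC38-LM3b (filled where the adjusted p is under 0.05). Sp100 is highest in both (1.63 and 1.87) and Ifitm1 lowest (-1.41 and -2.03).

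The promoters of the members were searched for the letters of the 2 interferon-responsive elements. A RefSeq window of 300 bases on GRCm38.p6, from 250 bases before to 50 bases after a transcription start, was at hand for 36 members, with 48 windows in all. The core of the interferon-stimulated response element, GAAA and GAAA parted by 2 bases of any kind, was searched on both strands and was present in a window of 13 of the 36 members (36.1%), compared with 1079 of 27025 genes with a window (3.99%) and 3.58% of the 9088 tested genes with one. By window, 14 of 48 (29.2%) held it, against 3.44% of all 32851 windows. TTCNNNGAA, the core of the gamma-activated site, reads the same on both strands and was present for 9 of 36 members (25.0%), compared with 9.55% of all genes with a window. A match to the response element core was held by 9 of 31 tested members with a window (29.0%) and by 4 of 5 members below the level for testing (80.0%). A match is only a run of letters, and binding was not measured.

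The 250 bases before the start are shown for 6 members, 5′ to 3′ along the gene, with matches to the response element core in capitals (read as TTTC and TTTC parted by 2 bases where the match is on the other strand). Isg15 (chr4:156200819-156201068, minus strand) and Bst2 (chr8:71537473-71537722, minus strand) are shown because both rose in each derivative and hold overlapping matches. Ifit1 (chr19:34640639-34640888, plus strand) also holds 2 matches, but its level did not exceed 0.13 TPM in any library. Uba7 (chr9:107975317-107975566, plus strand) rose in both derivatives and has no match in its window. Ifitm1 (chr7:140967826-140968075, plus strand) fell in both and has none, and its neighbor Ifitm2 (chr7:140955962-140956211, minus strand) has 1.
Isg15: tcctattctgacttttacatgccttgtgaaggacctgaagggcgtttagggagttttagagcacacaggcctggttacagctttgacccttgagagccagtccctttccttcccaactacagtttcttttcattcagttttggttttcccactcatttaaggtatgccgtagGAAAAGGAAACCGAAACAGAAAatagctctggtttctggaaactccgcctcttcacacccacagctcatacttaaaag
Bst2: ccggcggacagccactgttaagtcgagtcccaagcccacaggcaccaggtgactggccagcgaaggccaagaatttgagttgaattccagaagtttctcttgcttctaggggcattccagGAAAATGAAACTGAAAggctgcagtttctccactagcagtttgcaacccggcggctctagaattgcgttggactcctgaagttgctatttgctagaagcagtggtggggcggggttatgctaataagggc
Ifit1: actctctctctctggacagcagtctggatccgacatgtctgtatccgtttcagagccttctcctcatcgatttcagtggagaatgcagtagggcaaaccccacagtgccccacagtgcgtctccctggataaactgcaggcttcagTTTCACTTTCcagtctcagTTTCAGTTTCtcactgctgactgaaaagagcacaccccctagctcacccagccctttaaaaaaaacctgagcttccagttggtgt
Uba7: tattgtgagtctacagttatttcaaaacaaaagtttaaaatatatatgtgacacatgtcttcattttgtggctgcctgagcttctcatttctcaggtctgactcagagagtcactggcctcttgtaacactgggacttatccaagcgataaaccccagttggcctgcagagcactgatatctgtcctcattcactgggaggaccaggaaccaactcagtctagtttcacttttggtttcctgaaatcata
Ifitm1: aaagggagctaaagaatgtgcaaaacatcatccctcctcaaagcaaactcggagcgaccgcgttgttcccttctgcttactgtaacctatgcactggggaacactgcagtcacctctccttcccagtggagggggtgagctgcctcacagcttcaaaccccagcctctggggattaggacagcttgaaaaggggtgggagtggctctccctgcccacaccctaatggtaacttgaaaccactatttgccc
Ifitm2: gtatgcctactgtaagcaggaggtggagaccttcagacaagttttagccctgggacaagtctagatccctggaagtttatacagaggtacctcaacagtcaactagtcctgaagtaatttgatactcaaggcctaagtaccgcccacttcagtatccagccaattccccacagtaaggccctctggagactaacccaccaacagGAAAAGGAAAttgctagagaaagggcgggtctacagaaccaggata
The 3 overlapping matches of Isg15 began 78, 72 and 66 bases before the start, and those of Bst2 130 and 124 bases before it. A TTCNNNGAA match of Bst2 began 136 bases before the start and overlapped the first of these. In Ifit1 the matches began 104 and 85 bases before the start, and in Ifitm2 46 bases before it.

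**Figure D3:**
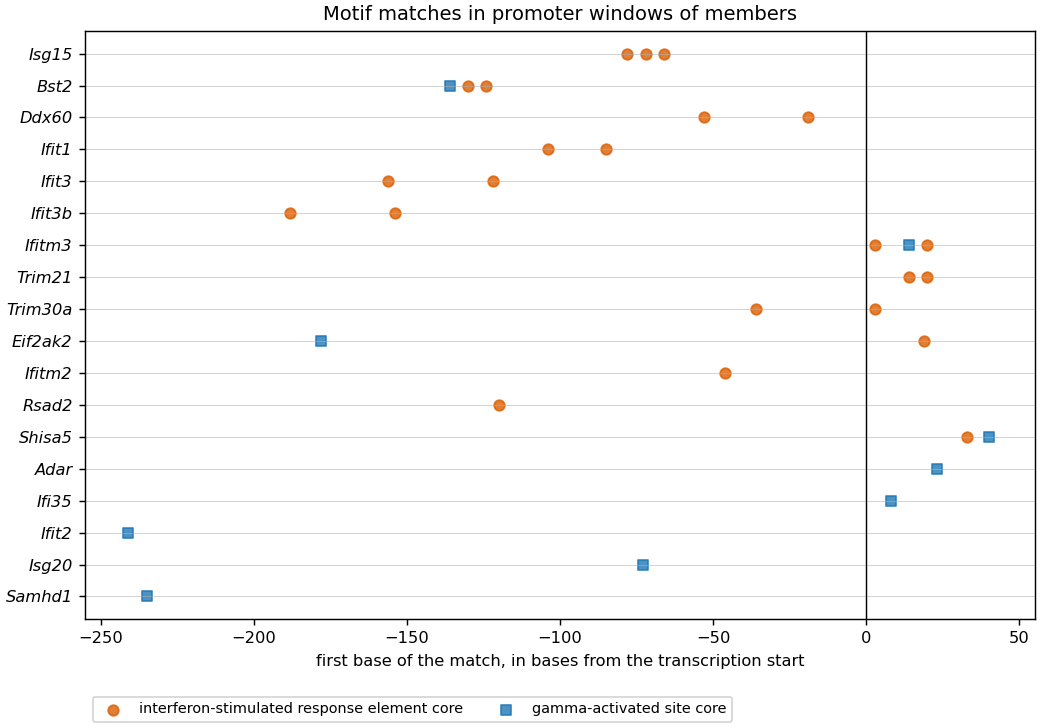
Position of matches to the response element core and to TTCNNNGAA in the promoter windows of the members that hold either, as the distance of the first base from the transcription start (0), with 1 mark for each match. In Isg15, Bst2, Ifit1, Ifit3, Ifit3b and Ddx60 all matches to the response element core lie before the start, and in Trim21, Ifitm3, Eif2ak2 and Shisa5 after it.

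The system that conjugates Isg15, a ubiquitin-like modifier, was higher for the modifier, its activating enzyme and its ligase, while no difference was called for the protease that removes it. Uba7, the enzyme that activates Isg15 for conjugation, had levels of 2.69, 2.44 and 2.16 TPM in the MC38-P libraries, 5.75, 5.87 and 8.25 TPM in MC38-LM3a and 8.92, 9.22 and 9.12 TPM in MC38-LM3b. No library of a derivative overlapped MC38-P. All MC38-LM3b libraries lay above MC38-LM3a, but 83.6% of all tested genes had a positive log2 fold change between these lines as deposited. Uba7 rose by 1.14 on the log2 scale in MC38-LM3a (limma, standard error 0.137, adjusted p = 1.89e-04) and by 1.56 in MC38-LM3b (adjusted p = 1.78e-05). Isg15 itself, at 11.2 ± 2.11 TPM (mean ± SD, n = 3) in the parental cells, rose to 20.3 ± 4.33 TPM (MC38-LM3a) and 20.2 ± 0.760 TPM (MC38-LM3b), log2 fold changes of 0.80 and 0.81. Herc6, the main mouse ligase for Isg15, had 5.59 ± 0.803, 7.82 ± 1.30 and 10.7 ± 0.358 TPM in MC38-P and the derivatives LM3a and LM3b, the order in which group means are given hereafter. It rose by 0.83 in MC38-LM3b (adjusted p = 7.92e-04). The rise of 0.42 in MC38-LM3a (adjusted p = 0.0406) passed the threshold in only 2 of the 9 fits that left out 1 library. Usp18, the protease that removes Isg15 and restrains the type I receptor, had means of 1.73, 1.63 and 1.81 TPM, and its 95% interval for MC38-LM3b against MC38-P ran from -0.34 to 0.42. Trim25, a ubiquitin and Isg15 ligase of the RNA sensing pathway, was not called either, at 53.1, 50.4 and 62.4 TPM. Without replicate 3 of MC38-P and of MC38-LM3a it was lower in MC38-LM3a (-0.37, adjusted p = 1.8e-04), as were 45.2% of all tested genes. After correction over all libraries its value there was -0.03 (adjusted p = 0.616).

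**Figure D4:**
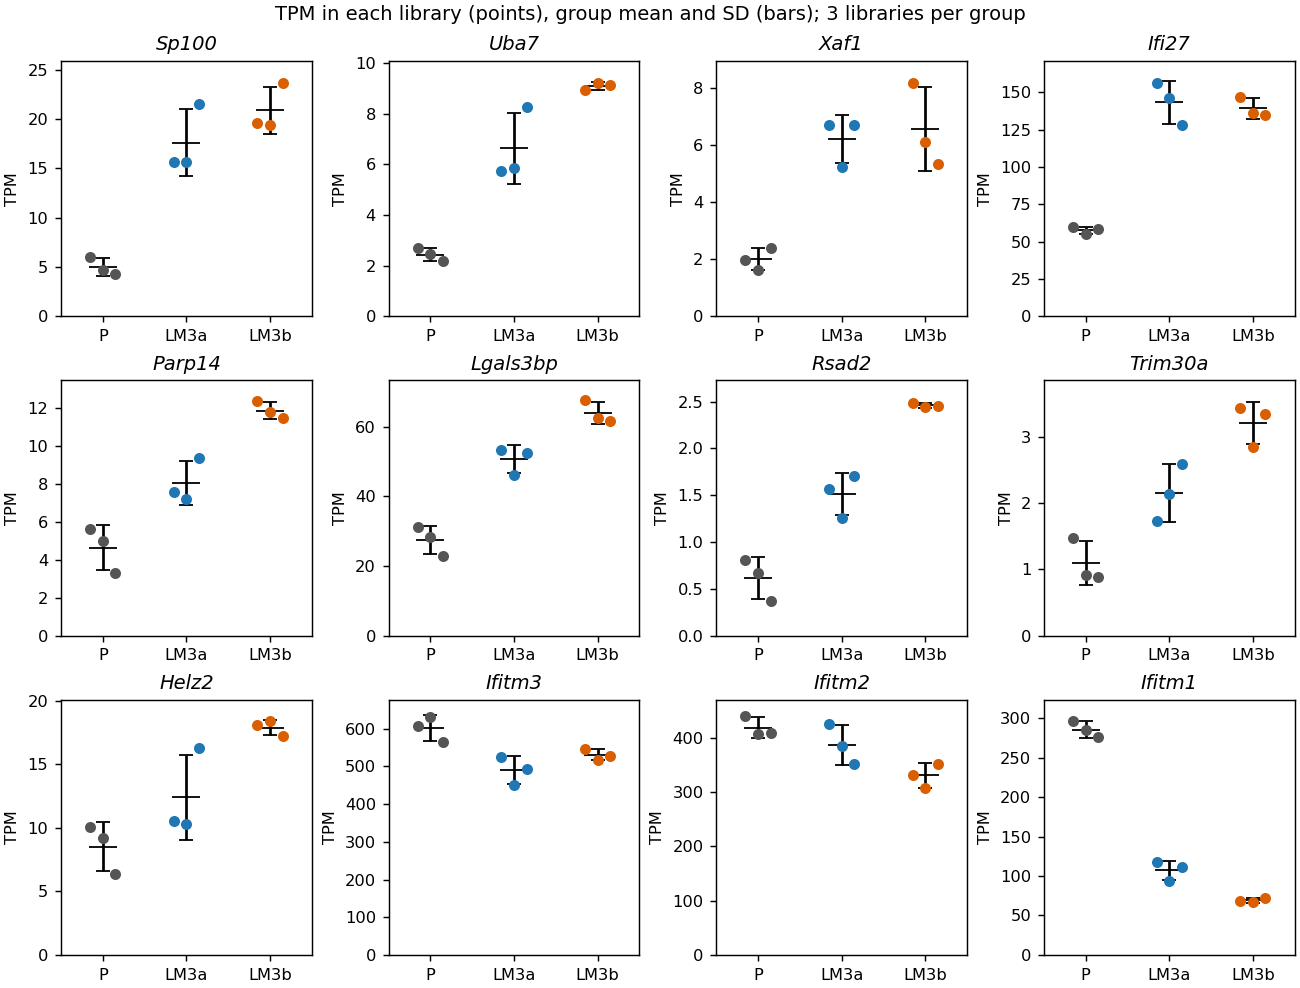
TPM in each of the 9 libraries for the 12 members that were DEGs or were lower than MC38-P, on linear axes from 0, with 1 point per library and bars for the group mean and SD. The means of the derivatives lie above MC38-P for 9 members, and Ifitm1 lies between 276 and 296 TPM in MC38-P, between 93.3 and 117 TPM in MC38-LM3a and between 67.5 and 72.6 TPM in MC38-LM3b.

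Members of the TRIM family and of nuclear bodies held the largest rise. Sp100 (NCBI Gene 20684, chromosome 1), a component of the nuclear bodies formed by Pml, was at 6.00, 4.68 and 4.33 TPM in MC38-P, at 15.67, 15.62 and 21.54 TPM in MC38-LM3a and at 19.62, 19.41 and 23.68 TPM in MC38-LM3b. The groups did not overlap with MC38-P, but the derivatives overlapped each other. Its rise on the log2 scale was 1.63 for MC38-LM3a (limma, standard error 0.154, adjusted p = 3.7e-05) and 1.87 for MC38-LM3b (adjusted p = 1.09e-05). Part of mouse Sp100 is repeated in a gene cluster on the same chromosome, and how the reads of such copies were assigned is not given in the sources used here. Trim30a, an inhibitor of NF-kB signaling, was low throughout, at 1.48, 0.91 and 0.89 TPM in MC38-P, 1.73, 2.14 and 2.60 TPM in MC38-LM3a and 3.45, 2.85 and 3.35 TPM in MC38-LM3b. Every derivative library lay above MC38-P, with log2 fold changes of 0.60 (adjusted p = 0.0133) and 1.02 (adjusted p = 4.56e-04). The first of these lost its call without MC38-P replicate 2 (0.53, adjusted p = 0.0625). After correction for length and GC content the values were 0.55 and 0.76. Trim30a reached the level for testing only through the derivatives. Trim21, a cytosolic antibody receptor and ubiquitin ligase, rose by 0.75 and 0.97 on the log2 scale. Pml rose in MC38-LM3b (0.71, adjusted p = 0.00294), or by 0.49 after correction for length and GC content. Its difference in MC38-LM3a was 0.29 (adjusted p = 0.168), or 0.35 after correction (adjusted p = 6.48e-04).

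All 5 members of ADP-ribosylation rose in MC38-LM3b and 3 of them in MC38-LM3a, or all 5 in both after correction. Among all tested genes 35.6% rose in MC38-LM3b and 14.1% in MC38-LM3a, or 29.3% and 26.5% after correction. Parp14, a mono-ADP-ribosyltransferase, was at 5.65, 4.98 and 3.32 TPM in MC38-P, 7.56, 7.20 and 9.38 TPM in MC38-LM3a and 12.38, 11.80 and 11.47 TPM in MC38-LM3b. Both derivatives lay above MC38-P in every library. The log2 fold change was 0.69 (adjusted p = 0.00875 in limma) and 1.21 (adjusted p = 2.46e-04). Parp9 and its partner Dtx3l, a ubiquitin ligase, neighbor Parp14 on chromosome 16. Parp9 rose by 0.57 and 0.76 on the log2 scale in MC38-LM3a and MC38-LM3b, and Dtx3l by 0.79 in MC38-LM3b, with 0.32 (adjusted p = 0.164) in MC38-LM3a. Parp12, which acts against RNA viruses, had 32.8 ± 2.98, 48.1 ± 4.51 and 55.3 ± 2.69 TPM. Parp10 is encoded on chromosome 15, whose 464 tested genes had median log2 fold changes of -0.53 for MC38-LM3a and -0.31 for MC38-LM3b. Its own values were 0.13 (adjusted p = 0.418) and 0.42 (adjusted p = 0.00881).

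Among the enzymes that act on nucleic acids and nucleotides, 2 of 8 tested rose in MC38-LM3a and 5 in MC38-LM3b, or 5 in both after correction. Without Rsad2, which was tested only through its level in the derivatives, 1 of 7 rose in MC38-LM3a, near the share of all genes (14.1%), and 4 of 7 in MC38-LM3b (35.6% of all genes). After correction 4 of these 7 rose in each, beside 26.5% and 29.3% of all genes. Rsad2 (viperin), which makes a nucleotide that stops viral RNA synthesis, was at 0.81, 0.67 and 0.37 TPM in MC38-P, 1.57, 1.26 and 1.70 TPM in MC38-LM3a and 2.49, 2.44 and 2.45 TPM in MC38-LM3b. No derivative library overlapped MC38-P. The log2 fold changes of 0.64 (adjusted p = 0.00467 in limma) and 1.11 (adjusted p = 1.24e-04) understate the ratios of the mean TPM, 2.45 and 3.99, since 1 TPM was added before the logarithm. Cmpk2, the nucleotide kinase next to Rsad2 on chromosome 12, was not called, at 3.28 ± 0.640, 3.39 ± 0.192 and 3.59 ± 0.247 TPM. Helz2, a helicase and coactivator, was at 10.04, 9.19 and 6.34 TPM in MC38-P, 10.57, 10.33 and 16.27 TPM in MC38-LM3a and 18.09, 18.36 and 17.18 TPM in MC38-LM3b. Replicate 3 was the lowest library of MC38-P and the highest of MC38-LM3a. Helz2 rose in MC38-LM3b (1.01, adjusted p = 0.00167). Its difference in MC38-LM3a was 0.49 (adjusted p = 0.0769) as deposited and 0.65 (adjusted p = 3.22e-06) after correction. The corrected value in MC38-LM3b was 0.70, close to that of MC38-LM3a.

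Isg20, an exonuclease that degrades RNA, had 57.4 ± 2.23, 73.7 ± 4.56 and 71.1 ± 3.54 TPM, and rose in both derivatives. Eif2ak2 (PKR), the kinase that stops translation on binding double-stranded RNA, rose by 0.56 on the log2 scale in MC38-LM3b (adjusted p = 0.0124 in limma), with 0.24 (adjusted p = 0.278) in MC38-LM3a. Znfx1, an RNA-binding helicase, likewise rose in MC38-LM3b (0.76, adjusted p = 0.00615), with 0.26 (adjusted p = 0.319) in MC38-LM3a. No difference was called for Samhd1, which breaks down nucleotides, or Adar, which edits adenosine in double-stranded RNA. Their values in MC38-LM3a were 0.05 and 0.04, and without replicate 3 of MC38-P and of MC38-LM3a they were -0.16 and -0.28, both past the threshold. In MC38-LM3b the values were 0.28 (adjusted p = 0.0695) and 0.39 (adjusted p = 0.0650), and without those libraries 0.20 and 0.24 passed as higher. Of all tested genes, 45.2% were then lower in MC38-LM3a and 46.3% higher in MC38-LM3b. After correction over all libraries, neither gene was called in either derivative.

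The membrane and secreted proteins moved in both directions. Ifitm1 (NCBI Gene 68713, chromosome 7), a small membrane protein that hinders the fusion of viruses with the cell, was at 296.36, 284.45 and 275.98 TPM in MC38-P, 117.31, 93.25 and 110.94 TPM in MC38-LM3a and 67.76, 67.45 and 72.62 TPM in MC38-LM3b. The groups were far apart and did not overlap. On the log2 scale Ifitm1 fell by 1.41 in MC38-LM3a (limma, standard error 0.0842, adjusted p = 1.52e-06) and fell by 2.03 in MC38-LM3b (adjusted p = 7.18e-08), to 0.375 and 0.243 times the mean TPM of MC38-P. Ifitm2, encoded beside it on chromosome 7, was at 441.13, 407.11 and 409.23 TPM in MC38-P, 425.27, 385.46 and 351.31 TPM in MC38-LM3a and 332.50, 307.83 and 352.26 TPM in MC38-LM3b. It overlapped with MC38-P in MC38-LM3a (-0.12, adjusted p = 0.307) and fell by 0.34 in MC38-LM3b (adjusted p = 0.00555). Ifitm3, which acts in endosomes and was the most abundant member in every library, was at 608.34, 631.08 and 565.51 TPM in MC38-P, 524.32, 450.03 and 493.81 TPM in MC38-LM3a and 545.94, 517.26 and 528.81 TPM in MC38-LM3b. All derivative libraries lay below MC38-P. Its fall of 0.30 in MC38-LM3a had an adjusted p of 0.00736. The fall of 0.18 in MC38-LM3b (adjusted p = 0.0482) did not pass after correction (-0.14, adjusted p = 0.173), and passed in 4 of the 9 fits that left out 1 library. The Ifitm genes resemble each other in sequence, and how reads shared between them were counted is not given in the sources used here.

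Other proteins of the membrane or secreted space rose. Lgals3bp, a secreted glycoprotein that binds galectins, was at 31.23, 28.23 and 23.01 TPM in MC38-P, 53.41, 46.28 and 52.60 TPM in MC38-LM3a and 67.64, 62.64 and 61.80 TPM in MC38-LM3b. The derivatives did not overlap with MC38-P, and the log2 fold changes were 0.87 (adjusted p = 2.49e-04 in limma) and 1.20 (adjusted p = 2.26e-05). Bst2 (tetherin), which holds budding virus particles at the cell surface, had 65.3 ± 3.17, 85.5 ± 4.80 and 87.1 ± 7.72 TPM and rose by 0.38 and 0.41. Shisa5, a membrane protein linked to apoptosis, had 86.4 ± 1.31, 114 ± 5.13 and 130 ± 3.39 TPM. Rtp4, a chaperone of membrane receptors, did not exceed 0.88 TPM.

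Among the remaining effectors, Ifi27 and Xaf1 rose in both derivatives to overlapping levels. Ifi27, a small membrane protein of mitochondria, was at 59.52, 54.97 and 58.24 TPM in MC38-P, 156.12, 145.86 and 127.87 TPM in MC38-LM3a and 146.97, 136.13 and 134.43 TPM in MC38-LM3b. The derivatives overlapped each other and lay far above MC38-P, and the rises on the log2 scale were 1.30 (limma, standard error 0.0806, adjusted p = 1.97e-06) and 1.26 (adjusted p = 1.8e-06). Xaf1, an antagonist of the apoptosis inhibitor XIAP, was at 1.98, 1.63 and 2.40 TPM in MC38-P, 6.69, 5.23 and 6.68 TPM in MC38-LM3a and 8.18, 6.10 and 5.34 TPM in MC38-LM3b. Its derivatives also overlapped only each other, and the log2 fold changes were 1.26 (adjusted p = 2.93e-04) and 1.32 (adjusted p = 1.58e-04). Ifi30, the lysosomal thiol reductase that prepares antigens, was abundant and rose slightly, from 214 ± 5.49 to 247 ± 4.44 and 257 ± 5.35 TPM. Ifi35 and its binding partner Nmi rose by 0.46 and 0.52 on the log2 scale in MC38-LM3a and by 0.46 and 0.48 in MC38-LM3b. Under centring of each library on its median, the differences of Ifi30, Ifi35, Nmi, Isg20 and Bst2 in MC38-LM3b were 0.04 to 0.26 and none passed the threshold, nor did that of Ifi30 in MC38-LM3a.

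Rnf213, a giant ubiquitin ligase, rose by 0.66 in MC38-LM3b (adjusted p = 0.0282 in limma), a call that held in 5 of the 9 fits that left out 1 library. After correction Rnf213 rose by 0.33 in that line (adjusted p = 4.1e-04). In MC38-LM3a its value was 0.07 (adjusted p = 0.842), 0.25 after correction (adjusted p = 0.00285) and -0.39 without replicate 3 of MC38-P and of MC38-LM3a. In that last fit 45.2% of all tested genes were lower. Tor3a, an ATPase of the endoplasmic reticulum, was not called, at 25.5, 27.2 and 29.8 TPM. Epsti1 had 4.42 ± 0.332, 5.00 ± 0.566 and 3.40 ± 0.421 TPM. Its difference in MC38-LM3b was -0.30 (adjusted p = 0.0610) as deposited and -0.48 after correction, where it passed.

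The IFIT proteins, which bind viral RNA with foreign ends, were near 0 with a single exception. Ifit2 had 1.78 ± 0.303, 3.31 ± 0.861 and 4.52 ± 0.306 TPM and rose by 0.62 (adjusted p = 0.0118 in limma) and 0.99 (adjusted p = 6.02e-04). Ifit1, Ifit3 and Ifit3b, its neighbors on chromosome 19, stayed at or below 0.13, 0.57 and 0.13 TPM. Ifit3 and Ifit3b are near-identical copies, so reads cannot be assigned between them with certainty. Ifi44 and Ddx60 likewise stayed at or below 0.88 and 0.47 TPM. No difference was tested for these genes.

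Between MC38-LM3b and MC38-LM3a a single effector was called, and the count depended on MC38-LM3a replicate 3. In limma 1 member differed at an adjusted p-value under 0.05, and 0.0532% of all tested genes did. Ifitm1 was lower in MC38-LM3b by a log2 difference of -0.62 (standard error 0.0842, adjusted p = 0.0346), 69.3 ± 2.90 against 107 ± 12.5 TPM. This call held in 5 of 18 alternatives, with adjusted p from 0.00383 to 0.257 and values between -0.84 and -0.55. No member was higher, while 15 members were higher and 3 lower (Ifitm1, Ifitm2 and Epsti1) at an unadjusted p-value under 0.05. Of all tested genes 35.5% were higher and 2.58% lower by that measure, so the count of higher members lay near the background. The median difference of the members was 0.22, beside 0.21 for all tested genes, and 0.05 beside 0.00 after correction. Without MC38-LM3a replicate 3, 20 members were higher and 3 lower, and of 11256 tested genes 5874 were higher and 477 lower. The 95% intervals of Sp100 (-0.10 to 0.58), Ifi27 (-0.22 to 0.14) and Isg15 (-0.35 to 0.37) contained 0, and those of Uba7 (0.12 to 0.72) and Parp14 (0.16 to 0.87) did not. Uba7 and Parp14 were nonetheless not called (adjusted p = 0.119 for each in limma). After correction their differences were 0.19 (adjusted p = 0.182) and 0.16 (adjusted p = 0.215).

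**Figure D5:**
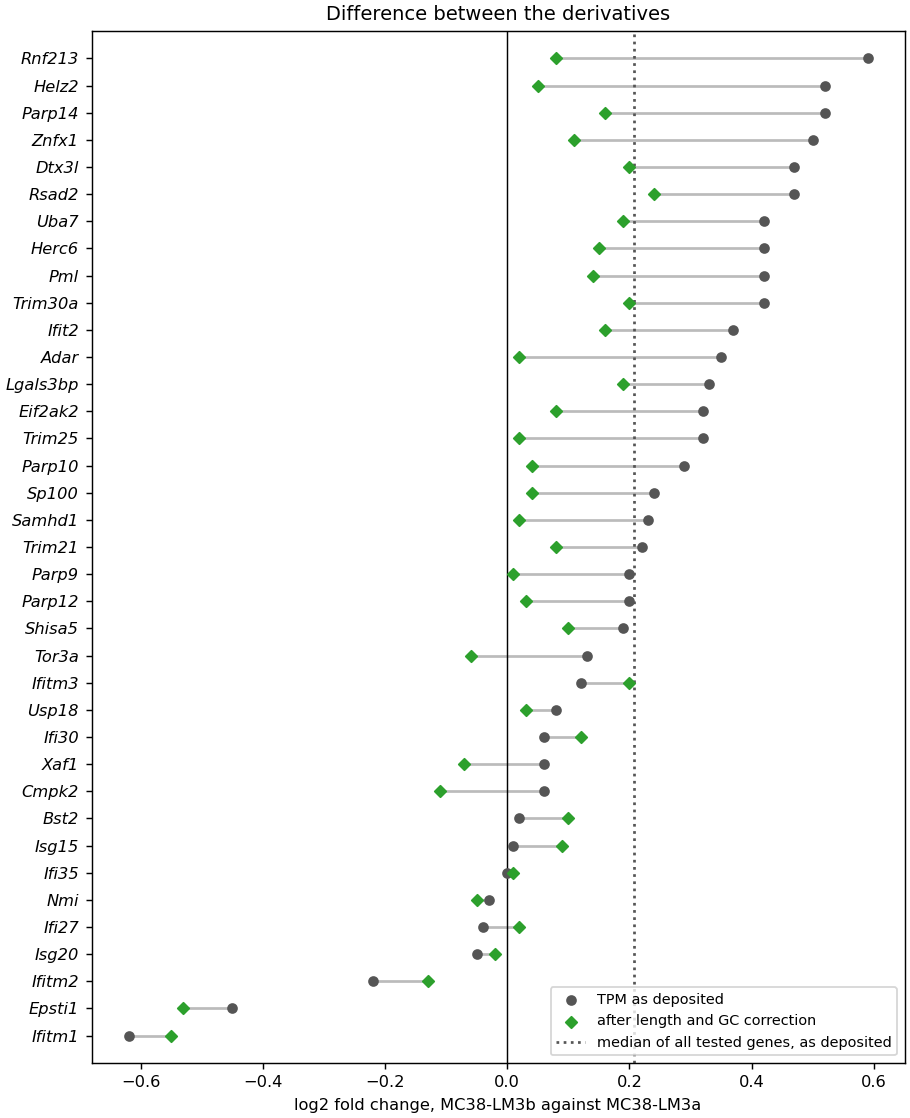
Log2 fold change of each of the 37 tested members in MC38-LM3b against MC38-LM3a, as deposited and after correction for length and GC content, with a dotted line at the median of all tested genes as deposited (0.21). The corrected values range between -0.55 for Ifitm1 and 0.24 for Rsad2.

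Genes of the interferon pathway itself, from ligands to inhibitors, were compared beside the effectors. Of 36 such genes, 28 were listed and 25 tested, and in limma 5 were higher and 1 lower in MC38-LM3a, while 16 were higher and 1 lower in MC38-LM3b. The shares of higher genes among all tested were 14.1% and 35.6%. Irf7, counted as higher in both derivatives, reached the level for testing only with their libraries. After correction these counts were 14 higher and 3 lower in each, beside 26.5% and 29.3% of all genes higher. The count of 5 was 3 without MC38-P replicate 2 or replicate 3, with the groups compared alone and with the replicate block, and without replicate 3 of MC38-P and of MC38-LM3a 8 were lower in MC38-LM3a (45.2% of all genes). The median log2 fold changes were 0.19 and 0.44 as deposited, beside 0.00 and 0.21 for all genes, and none of the 25 was a DEG. The listed ligands, Ifnb1 and Ifnk, did not exceed 0.23 TPM in any library. Of the receptor chains, Ifngr1 rose by 0.33 (adjusted p = 0.0065) and 0.54 (adjusted p = 2.45e-04), and Ifnar1 by 0.44 in MC38-LM3b (adjusted p = 0.0142), with 0.19 in MC38-LM3a (adjusted p = 0.273). After correction Ifnar1 passed the threshold in both derivatives, with closer values of 0.21 for MC38-LM3a and 0.24 for MC38-LM3b. Ifngr1 also passed in both, at 0.27 and 0.39. Neither Ifnar2 (-0.02 and 0.17) nor Ifngr2 (-0.24 and -0.09) was called as deposited.

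Among the transcription factors named here, Irf7 rose in both derivatives. It amplifies type I interferon production and was low, at 1.27 ± 0.356, 2.70 ± 0.327 and 2.94 ± 0.0458 TPM, and rose by 0.72 and 0.81. With 0.90 TPM in MC38-P replicate 3, Irf7 reached the level for testing only with the derivatives. Stat2, Irf9 and Irf1 rose in MC38-LM3b by 0.91, 0.44 and 0.26, and their values in MC38-LM3a of 0.48, 0.30 and 0.18 did not pass the threshold as deposited. Stat2 and Irf1 passed in both derivatives after correction, and Irf9 in MC38-LM3a only, with 0.25 (adjusted p = 0.0883) in MC38-LM3b. Of 9 inhibitors of the pathway 1 was higher and 1 lower in MC38-LM3a, and 4 were higher and 1 lower in MC38-LM3b. These counts lie near the shares of all tested genes (14.1% higher and 13.8% lower in the former, 35.6% and 11.2% in the latter). The phosphatase Ptpn1 rose in both (0.28 and 0.45), and Ptpn11 (0.43), Pias1 (0.49) and Cish (0.47) rose in MC38-LM3b. After correction Ptpn1 (0.33 and 0.23), Ptpn11 (0.18 and 0.14) and Pias1 (0.20 and 0.21) were higher in both. Cish was then called in neither (0.25 and 0.24). As deposited, the single lower gene in both derivatives was Ptpn6, the phosphatase SHP-1 (-0.76 and -0.56). After correction Ptpn2, another phosphatase (-0.20 and -0.30), and Ifngr2 (-0.24 and -0.28) were lower in both as well. These inhibitors are named here after their values were seen.

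Markers of cells that could accompany tumor cells from the liver were also measured. Those above 5 TPM in any library were Cd68, Bst2 and Tcf4. In every library the 4 listed of 5 hematopoietic markers summed to at most 0.5 TPM, with Ptprc (CD45) at or below 0.09 TPM. The single listed T cell marker reached at most 0.18 TPM, and the 4 listed of 6 hepatocyte markers summed to at most 0.82 TPM. Of 8 macrophage markers 3 were listed, and their sum ranged over 27.8 to 29.6 TPM (MC38-P), 34.2 to 41.0 TPM (MC38-LM3a) and 40.0 to 45.6 TPM (MC38-LM3b), nearly all of it Cd68, which other cells also express. The 4 endothelial markers summed to 0.7 to 1.9 TPM over all libraries. The 3 listed of 4 stellate markers summed to 2.08 to 2.67 TPM (MC38-P), 1.96 to 2.74 TPM (MC38-LM3a) and 3.73 to 4.13 TPM (MC38-LM3b). Among them Pdgfrb rose in MC38-LM3b (0.88, adjusted p = 6.95e-04 in limma). Des, below the level for testing, went the other way, with means of 0.887, 0.253 and 0.237 TPM. Rgs5 did not exceed 0.08 TPM. Of the 4 plasmacytoid dendritic cell markers Bst2 and Tcf4 were listed, and Bst2 is itself a member. Their sum was 79.8 to 87.0 TPM (MC38-P), 98.3 to 102 TPM (MC38-LM3a) and 98.7 to 113 TPM (MC38-LM3b). Tcf4, which other cells also express, had 17.7 ± 2.76, 15.2 ± 2.64 and 19.9 ± 0.753 TPM and was not called. The part of the rises in Cd68 and Pdgfrb and of the lower level of Des in these results was not tested.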

How the data were processed

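Poly(A) RNA of the 3 lines, in 3 cultures per line, was sequenced on the DNBSEQ platform. The authors deposited TPM with 2 decimals for 16399 genes in each of 9 libraries, without pooling, and the submitters' processing notes name HISAT and GRCm39. The quantification tool is not given in the sources used here. As TPM keep no read counts, the depth is unknown, counting error cannot be given, and the count model named in the study's methods (DESeq2) could not be run. The TPM of each library summed to between 999999.60 and 1000000.34.

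Values were analysed with R 4.3.3 and limma 3.58.1 as log2(TPM + 1), after removal of genes that reached 1 TPM in fewer than 3 libraries, which left 11287. The linear model held 1 mean for each line over the 9 libraries, the variance prior followed a trend in expression, and two-sided p-values were adjusted by Benjamini-Hochberg over all tested genes. Fold changes on this scale understate those of low genes. A gene was called at an adjusted p-value under 0.05 and was a DEG if the absolute log2 fold change also exceeded 1. Transcript length and GC content of the longest GENCODE M21 transcript were available for 11096 genes (98.3%), and a loess fit of span 0.3 on both gave offsets for each library. The procedure was tested on simulated data. Chromosomes, gene neighbors and promoter windows came from RefSeq for GRCm38.p6, which differs from the build of the files, so no gene coordinates are given. Windows matched 36 members by symbol, and Tor3a, Usp18, Parp9, Parp10, Mx1, Mx2, Ifi27, Parp14 and Rtp4 had none.

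The members and the lists of pathway genes, functional groups and cell markers were chosen with earlier results of these data known. All members are named, with values per library for DEGs and for members that fell or differed between the derivatives, and the pathway genes Stat2, Irf1, Irf7, Irf9, Ifnar1, Ifnar2, Ifngr1 and Ifngr2 are named by rule. A further pathway gene that the rule names is not reported here. The p-values measure the spread between cultures of 1 line. Alternatives changed the pseudocount, the filter, the libraries in the fit, the normalization and the variance trend, added the replicate number as a block, and left out each library in turn. Leaving out replicate 3 of MC38-P and of MC38-LM3a together was added after seeing the data.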

Additional observations from a re-analysis of the deposited data

Results flagged for a closer look

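Ifitm1 was the member that differed between the derivatives, with a log2 fold change of -0.62 in MC38-LM3b against MC38-LM3a (adjusted p = 0.0346 in limma). It is listed because the direct test between the lines passed, on top of the fall that both lines showed against MC38-P. The value was -0.55 after correction for length and GC content (adjusted p = 0.0416), and all 3 MC38-LM3b libraries lay below all 3 MC38-LM3a libraries. The call held in 2 of the 9 fits that left out 1 library.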

How the results depend on the processing

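Leaving out 1 library at a time gave 18 to 20 higher and 2 lower members in MC38-LM3a, 3 to 4 of them higher DEGs, with medians of 0.3 to 0.4, and 26 to 30 higher and 2 to 4 lower in MC38-LM3b, 6 to 11 of them higher DEGs, with medians of 0.56 to 0.76. Between the derivatives it gave 0 to 20 higher and 0 to 3 lower members with medians of 0.17 to 0.3, and 0 to 13 pathway genes higher. For the pathway genes against MC38-P it gave 3 to 6 higher in MC38-LM3a and 11 to 16 in MC38-LM3b, with 1 lower in each. The counts of 20 and 13 arose without MC38-LM3a replicate 3, and the lowest count of 3 pathway genes in MC38-LM3a without MC38-P replicate 2 or 3. Quantile normalization, centring on the median and the offsets for length and GC content gave 5, 4 and 5 higher DEGs among the members in MC38-LM3b, medians of 0.47, 0.44 and 0.47, and medians between the derivatives of 0.03, 0.00 and 0.05. For all tested genes the shares of higher DEGs in MC38-LM3b were 1.57%, 1.53% and 1.63%, with medians of 0.02, -0.01 and 0.01. The same settings gave 11, 12 and 14 higher and 2, 2 and 3 lower pathway genes in MC38-LM3a, and 4, 4 and 3 lower in MC38-LM3b. Of all tested genes 21.5%, 19.8% and 26.5% were then higher in MC38-LM3a and 20.5%, 20.1% and 24.6% lower. In MC38-LM3b 24.5%, 26.4% and 28.3% of all tested genes were lower. These 3 settings centre the libraries, and the part of that centring in each change was not tested. Fitting only the groups compared gave 3 higher pathway genes in MC38-LM3a.

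The lower count between the derivatives (Ifitm1) was 0 under a pseudocount of 0.1, no filter, a filter of 5 TPM, only the groups compared, the replicate block and no variance trend. Without replicate 3 of MC38-P and of MC38-LM3a, 6 members were lower in MC38-LM3a with a median of 0.22 and 8 pathway genes were lower, beside 45.2% of all genes lower and a median of -0.14 over all genes. Between the derivatives 22 members were then higher, 3 lower and 20 pathway genes higher, where 7266 of 11187 tested genes were higher and 759 lower. Samhd1 (-0.16), Adar (-0.28) and Rnf213 (-0.39) then changed sign and passed in MC38-LM3a, and the cause was not tested. Leaving out single libraries gave -0.08 to 0.13, -0.13 to 0.15 and -0.20 to 0.22 for them.

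The replicate number did not pair the libraries. Deviations of same-numbered libraries had correlations between -0.66 and 0.07 over 9 pairs, none over 0.1, and 3 of 9 libraries correlated best with their own number. With the replicate block, 3 pathway genes were higher in MC38-LM3a, and Herc6 in MC38-LM3a (adjusted p = 0.106), Ifitm3 (0.0839) and Rnf213 (0.0701) in MC38-LM3b and Ifitm1 between the derivatives (0.191) lost their calls in limma. Over all alternatives the values of single members stayed on their side of the threshold 1960 times, gained a call 77 times, lost it 51 times and reversed 3 times. Of the 1960 values, 60 had another sign than as reported and passed in neither fit. The comparison of protein sequences within the Ifitm, Ifit3 and Mx pairs was not run.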
